A study of Mus musculus with 18 samples.

Results

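Replication-dependent histone genes were read by 43 of the 35557 probe sets (groups of probes summarised to 1 value) of an Affymetrix mouse gene array. Members were chosen by name: every symbol that a probe set listed had to be that of a clustered H1, H2A, H2B, H3 or H4 gene. Of 52 probe sets with such a name, 9 were left out because they also listed another symbol, 7 reading pools of H2B genes and 2 reading pools of H2A genes. In all 7 H2B pools that symbol was H4bc24, a platform name outside the rule. Whether it names a gene other than an H2B gene was not checked. The arrays held RNA of immortalized mouse embryonic fibroblasts (MEF) of ICR background, in 6 groups of 3 arrays. HS cells had 1 h at 42 °C in a water bath, and Cont cells stayed at 37 °C. Before that, all cells had been exposed for 2 h to adenovirus and kept for 70 h in medium, the virus carrying shRNA against SSBP1 (SSBP1-KD), shRNA against HSF1 (HSF1-KD) or scrambled RNA (SCR). Thus the SCR cells were infected too, and each knockdown rested on 1 shRNA construct in 1 kind of cell. HSF1 is the transcription factor that drives heat shock gene induction, and SSBP1 is a mitochondrial single-stranded DNA-binding protein. The comparisons asked how histone transcripts changed on heat shock and whether either knockdown altered their level or their heat response.

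Replication-dependent histone genes supply the histones that package newly made DNA, and their transcripts accumulate in S phase. H2A, H2B, H3 and H4 form the nucleosome core, and H1 is the linker histone that binds the DNA between cores. Most of the genes lack introns, and they lie in clusters and are transcribed in nuclear bodies that hold the coactivator NPAT. Their transcripts end in a stem-loop bound by SLBP instead of a poly(A) tail, and they are degraded quickly when DNA synthesis stops. Labelling was done with a whole-transcript kit, which does not rely on a poly(A) tail.

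Among the 43 members, 26 listed 1 symbol each, 2 listed 2 symbols and 15 were pooled sets. The 10 pooled H3 sets all listed the same 12 H3 genes and the 5 pooled H4 sets the same 11 H4 genes, so that they share targets and are not separate genes. Their lists also hold genes that other members read alone, such as H3c15 and H4c9. Counts of members are therefore not counts of genes. Over the 18 arrays, the pooled H3 sets correlated with each other at 0.995 or more and the pooled H4 sets at 0.997 or more, and 1 pair of pooled H4 sets held identical values. There were 4 members for H1, 4 for H2A, 9 for H2B, 13 for H3 and 12 for H4, and 1 more listed both H2bc6 and H1f4. All 26 single-symbol members matched RefSeq genes, 22 on chromosome 13 and 4 on chromosome 3 (H2bc18, H2bc21, H3c15 and H4c14). The annotated RefSeq gene spans ran from 375 to 903 bases, apart from H2bc21 (2667 bases), H2bc4 (8282 bases) and H2bc22 (14079 bases). No filter on low values was applied, so that every member was tested. The mean log2 signal of 8 members, each reading a single gene, lay below 7.90, the median over all probe sets: H1f3, H2ac4, H2ac8, H2bc21, H2bc22, H3c4, H3c7 and H4c8.

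The promoters below belong to the member of each class that fell furthest on heat shock in SCR cells, among single-symbol members with a promoter entry. They are single examples that do not stand for their classes, and a link of motifs to heat change was not tested. Each is 300 bases of RefSeq sequence (GRCm38.p6), from 250 bases before to 50 bases after the annotated start, 5′ to 3′ on the strand of the gene. Capitals mark matches on either strand to 5 motifs. These are the TATA box searched as TATAAA, the box of CCAAT letters, the octamer searched as ATTTGCAT, the H1 box searched as AAACACA, and a facing pair of heat shock element units searched as GAANNTTC, where N is any base. The positions are chr13:21780576-21780875, minus strand for the linker histone gene H1f5, chr13:23750838-23751137, plus strand for H2ac4, chr13:23746484-23746783, plus strand for H2bc3, chr3:96239078-96239377, minus strand for H3c15 and chr13:22041313-22041612, minus strand for H4c9.
H1f5: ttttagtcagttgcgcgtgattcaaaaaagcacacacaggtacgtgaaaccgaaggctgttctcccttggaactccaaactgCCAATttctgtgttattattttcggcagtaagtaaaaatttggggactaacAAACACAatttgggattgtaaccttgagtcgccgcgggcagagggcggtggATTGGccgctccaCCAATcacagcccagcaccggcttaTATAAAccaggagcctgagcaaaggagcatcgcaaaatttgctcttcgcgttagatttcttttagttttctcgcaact
H2ac4: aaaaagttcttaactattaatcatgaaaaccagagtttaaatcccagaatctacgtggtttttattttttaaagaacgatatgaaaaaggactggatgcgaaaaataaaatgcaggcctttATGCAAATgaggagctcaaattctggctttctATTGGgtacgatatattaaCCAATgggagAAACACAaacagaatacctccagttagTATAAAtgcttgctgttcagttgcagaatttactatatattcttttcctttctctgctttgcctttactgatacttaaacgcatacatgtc
H2bc3: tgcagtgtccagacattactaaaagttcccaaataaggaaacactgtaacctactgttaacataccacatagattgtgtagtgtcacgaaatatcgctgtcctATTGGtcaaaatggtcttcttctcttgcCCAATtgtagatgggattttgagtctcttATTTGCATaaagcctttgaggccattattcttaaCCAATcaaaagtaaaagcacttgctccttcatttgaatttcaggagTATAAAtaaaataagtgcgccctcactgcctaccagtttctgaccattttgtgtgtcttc
H3c15: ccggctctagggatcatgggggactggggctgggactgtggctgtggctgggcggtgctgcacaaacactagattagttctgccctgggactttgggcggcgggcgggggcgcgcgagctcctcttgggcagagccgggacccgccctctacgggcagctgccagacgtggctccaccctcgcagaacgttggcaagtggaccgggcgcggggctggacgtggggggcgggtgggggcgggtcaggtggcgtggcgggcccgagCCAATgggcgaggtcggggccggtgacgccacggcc
H4c9: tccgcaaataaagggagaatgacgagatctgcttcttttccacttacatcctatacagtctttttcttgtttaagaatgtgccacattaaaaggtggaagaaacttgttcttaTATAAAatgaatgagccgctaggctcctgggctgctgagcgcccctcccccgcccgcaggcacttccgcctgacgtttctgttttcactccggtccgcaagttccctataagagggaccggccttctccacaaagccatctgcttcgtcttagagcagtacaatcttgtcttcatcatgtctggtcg

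Of the 43 symbols that the members listed, 38 had a promoter entry. CCAAT was found in 30 of these 38 (78.9%), against 37.4% of all 32851 promoters of the same length, and TATAAA in 24 (63.2%, against 13.6%). The octamer was found in 8 (21.1%, against 1.74%), of which 3 were among the 4 H2A and 5 among the 8 H2B promoters. AAACACA was also found in 8 (21.1%, against 7.18%), 4 of 5 for H1, 2 of 4 for H2A and 2 of 8 for H2B. Every H1, H2A, H2B and H3 promoter held CCAAT, but only 3 of 11 H4 promoters did. GAANNTTC was found in 4 promoters (10.5%, against 7.86%) and in none of the 5 printed here. Where windows of neighbouring genes overlap, a site in both is counted in each promoter, so that the 8 octamer matches lay at 6 distinct sites, the 8 of AAACACA at 7 and the 4 of GAANNTTC at 3. The single match in H3c15, to CCAAT, lay downstream of its start. TATAAA was counted at any position and on either strand. Its match began 137 bases before the start in H4c9 and 10 in H2bc3, against 28 in H1f5 and 41 in H2ac4. These matches are letters in a window and not measured sites, and motifs were counted whether or not they overlapped another.

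Array medians lay between 7.88 and 7.94, and the lowest correlation between arrays of 1 group was 0.985. The array SSBP1-KD Cont replicate 1 was the least like its group, with a mean absolute deviation from its group mean of 0.152 on the log2 scale, against 0.0700 to 0.110 in the other arrays. Ssbp1 was 8.65 ± 0.0732 in SSBP1-KD HS and 9.06 ± 0.0269 in SCR HS (mean ± SD of log2 signal, n = 3 each), a difference of -0.41 (limma adjusted p = 0.00155). It was 9.2 ± 0.159 in SSBP1-KD Cont and 9.42 ± 0.105 in SCR Cont, and this difference missed the threshold (adjusted p = 0.0555). No probe set listed Hsf1 alone. The log2 heat change of Hspa1a, an HSF1 target, was 3.42 in SSBP1-KD, 0.55 in HSF1-KD and 4.31 in SCR cells. Of the fibroblast markers, 8 of 10 had a mean above the median of all probe sets, and none of 5 germ cell markers did. So did 2 of 5 epithelial markers, 1 of 4 endothelial markers and 1 of 4 macrophage and blood markers. The highest of these were Krt8 (8.93), Kdr (7.95) and Cd68 (9.79).

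**Figure D1:**
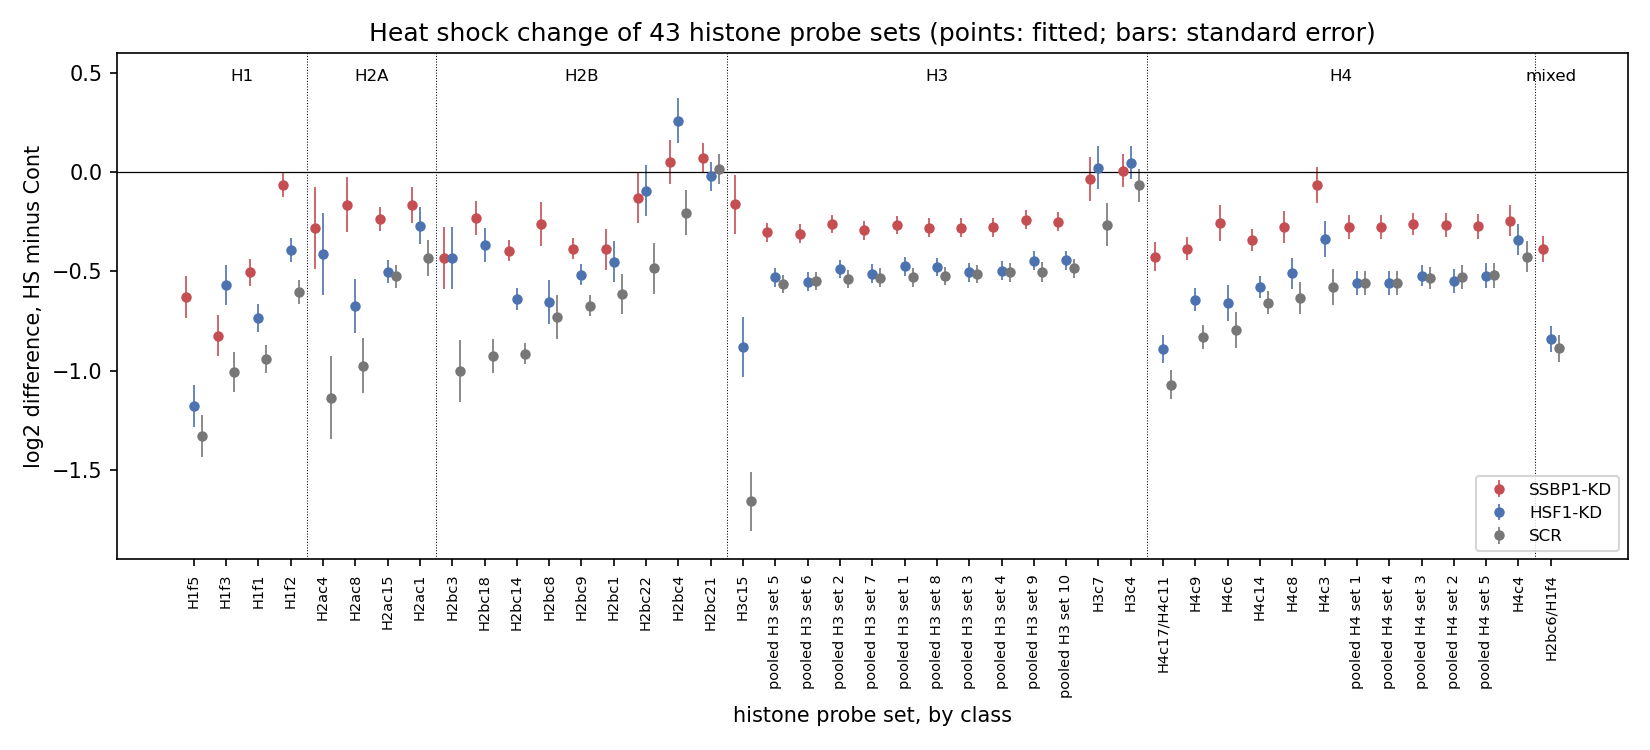
Log2 difference of HS minus Cont (y axis) for each of the 43 histone probe sets (x axis, by class) in SSBP1-KD, HSF1-KD and SCR cells; points are fitted values and bars standard errors, with 3 arrays per group. Most points lie below 0, and the lowest is H3c15 in SCR at -1.66.

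Heat shock lowered histone transcripts of every class in SCR cells. Of 43 members, 39 fell and none rose (limma, Benjamini-Hochberg adjusted p under 0.05), against 7.61% of all probe sets that fell and 7.78% that rose. The median log2 difference of the members was -0.56, a 1.47-fold lower signal, while the median over all probe sets was -0.0023. The class medians were -0.97 for H1, -0.75 for H2A, -0.67 for H2B, -0.52 for H3 and -0.57 for H4. The H3 median rested on the 10 pooled sets with shared targets, and it was -0.26 over the 3 single H3 genes, of which 1 fell. The HS and Cont arrays did not overlap in 40 of the 43 members, against 34.0% of all probe sets, in either direction. All 9 probe sets that had been left out fell as well, with log2 differences of -0.66 to -0.39. The H2B pools among them share targets with each other, as do the H2A pools, and 1 pair of H2B pools held identical values. The class medians thus compare unlike sets, since those of H2A and H2B held single genes only and those of H3 and H4 also pooled sets. Over pooled sets, the medians were -0.61 for H2A and -0.46 for H2B, both left out, and -0.53 each for H3 and H4. Over the 6 single H4 genes the median was -0.65. In such bulk samples, less RNA per cell and fewer cells that hold the transcript cannot be told apart.

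All 4 genes of the linker histone H1 fell. H1f5 was at 10.48, 10.32 and 10.28 in SCR HS arrays, against 11.66, 11.58 and 11.82 in SCR Cont arrays (log2 difference -1.33, standard error 0.107, adjusted p = 1.21e-06). H1f3 was at 7.33, 7.22 and 7.20 in SCR HS and 8.21, 8.18 and 8.38 in SCR Cont (-1.01, adjusted p = 9.49e-06). The smallest change of the 4 was that of H1f2, which was at 10.26, 10.05 and 10.07 in SCR HS and 10.69, 10.81 and 10.70 in SCR Cont (-0.60, adjusted p = 8.57e-06). In none of the 4 genes did the HS and Cont arrays overlap, beside 34.0% of all probe sets that did not overlap. H1f1 was 1.92-fold lower in SCR HS (adjusted p = 5.42e-07).

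All 4 genes of the core histone H2A fell too. H2ac4 was at 6.13, 5.96 and 5.88 in SCR HS and 7.07, 7.14 and 7.17 in SCR Cont (-1.14, standard error 0.208, adjusted p = 0.0015). H2ac8 was at 5.79, 5.59 and 5.58 in SCR HS and 6.70, 6.63 and 6.55 in SCR Cont (-0.98, adjusted p = 0.000197). H2ac15 was at 12.60, 12.52 and 12.52 in SCR HS and 13.05, 13.08 and 13.08 in SCR Cont (-0.53, adjusted p = 2.41e-05). HS and Cont arrays were separated in all 3, as in 34.0% of all probe sets, and also in H2ac1, a gene known for a testis form of H2A, which changed least. It was at 9.04, 8.89 and 9.0 in SCR HS and 9.40, 9.33 and 9.49 in SCR Cont (-0.43, adjusted p = 0.00475).

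Of the 9 members for H2B, the partner of H2A in the nucleosome core, 7 fell. H2bc3 was at 10.61, 10.48 and 10.61 in SCR HS and 11.52, 11.44 and 11.75 in SCR Cont (-1.001, adjusted p = 0.000424). H2bc14 was at 11.72, 11.59 and 11.61 in SCR HS and 12.58, 12.59 and 12.51 in SCR Cont (-0.91), with the smallest adjusted p of all members, 4.24e-08. Neither gene overlapped between conditions. The exceptions were H2bc21 and H2bc4, whose arrays did overlap. H2bc21 was at 7.37, 7.30 and 7.33 in SCR HS and 7.32, 7.21 and 7.43 in SCR Cont (0.02, adjusted p = 0.936). H2bc4 was at 9.53, 9.39 and 9.37 in SCR HS and 9.69, 9.75 and 9.45 in SCR Cont (-0.21, adjusted p = 0.283). The call of H2bc22 (-0.48, adjusted p = 0.0186) was lost without SCR Cont replicate 2, SCR Cont replicate 3 or SCR HS replicate 2.

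The widest range of change was within H3, which pairs with H4 in the nucleosome core. H3c15 was at 8.16, 7.95 and 8.18 in SCR HS, against 9.81, 9.77 and 9.69 in SCR Cont. The conditions lay far apart, and the log2 difference of -1.66 (standard error 0.149, adjusted p = 3.43e-06), a 3.15-fold lower signal, was the largest of all members. The 10 pooled H3 sets fell by similar amounts, with differences of -0.56 to -0.49. The one that changed most was at 13.46, 13.34 and 13.41 in SCR HS and 13.93, 13.98 and 13.98 in SCR Cont, without overlap. Another pooled H3 set was at 13.72, 13.56 and 13.67 in SCR HS and 14.10, 14.18 and 14.14 in SCR Cont, also without overlap. The single genes H3c7 and H3c4 did not pass. Their mean signals, 5.62 and 7.44, lay below 7.90, the median over all probe sets. H3c7 had a difference of -0.26 (adjusted p = 0.129), and its conditions did not overlap. H3c4 was at 7.42, 7.31 and 7.36 in SCR HS and 7.47, 7.33 and 7.49 in SCR Cont, which overlapped (-0.07, adjusted p = 0.717).

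All 12 H4 members fell. The set listing H4c17/H4c11 was at 8.23, 8.46 and 8.32 in SCR HS and 9.43, 9.43 and 9.36 in SCR Cont (-1.07, adjusted p = 2.27e-07). H4c9 was at 8.36, 8.18 and 8.25 in SCR HS and 9.07, 9.18 and 9.04 in SCR Cont (-0.83, adjusted p = 3.39e-07). Both showed a clear gap between conditions. The 5 pooled H4 sets fell, with differences of -0.56 to -0.52, 1 of them being at 12.96, 12.85 and 12.83 in SCR HS and 13.40, 13.36 and 13.47 in SCR Cont. H4c4 had the smallest change, at 12.16, 12.04 and 12.05 in SCR HS and 12.52, 12.39 and 12.62 in SCR Cont (-0.43, adjusted p = 0.00148). The methods' t-test, here with Benjamini-Hochberg adjustment over all probe sets, lost the calls of H4c4 and H4c3. No H4 member overlapped between conditions, beside 34.0% of all probe sets that did not overlap. The set listing H2bc6/H1f4 was at 9.23, 9.16 and 9.15 in SCR HS and 10.02, 10.14 and 10.04 in SCR Cont, a 1.85-fold lower signal (adjusted p = 5.86e-07).

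Some H2A and H2B genes are divergent neighbours whose promoter windows overlap on opposite strands. H2ac8 and H2bc8 changed by -0.98 and -0.73 on heat shock in SCR, and H2ac1 and H2bc1 by -0.43 and -0.61. All 4 genes fell. By chromosome, the median was -0.79 over the 4 single-symbol members on chromosome 3 and -0.65 over the 22 on chromosome 13.

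In HSF1-KD cells, 35 of 43 members fell and none rose on heat shock, against 10.0% of all probe sets that fell and 10.3% that rose. The median was -0.51. The 35 falls ran from 34 to 38 when 1 array was left out. Of the HSF1-KD arrays, Cont replicate 1 was the highest of its group in 34 members, Cont replicate 2 the lowest in 33 and HS replicate 3 the lowest in 37. In SSBP1-KD cells, 27 fell and none rose, against 4.14% and 4.13%, and the median was -0.27. HS and Cont did not overlap in 30 members in SSBP1-KD, against 24.3% of all probe sets, and in 36 in HSF1-KD, against 36.1%. H1 had the lowest median of the 5 classes in both, -0.57 in SSBP1-KD and -0.65 in HSF1-KD. All 15 pooled H3 and H4 sets fell in both knockdowns, and every member that missed the threshold read a single gene, 16 of 26 in SSBP1-KD and 8 of 26 in HSF1-KD. The count of 27 in SSBP1-KD was 7 when only the compared arrays were fitted, 2 by the methods' t-test with Benjamini-Hochberg adjustment, and 14 of 30 when each list of symbols was counted once.

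H1f5 fell in both knockdowns. It was at 10.14, 10.29 and 10.07 in SSBP1-KD HS and 10.68, 10.78 and 10.93 in SSBP1-KD Cont (-0.63, adjusted p = 0.00195). In HSF1-KD it was at 9.89, 9.92 and 9.59 in HS and 11.13, 10.80 and 11.02 in Cont (-1.18, adjusted p = 5.46e-06). HS and Cont did not overlap in either. H1f3 had the largest fall of any member in SSBP1-KD (-0.82, adjusted p = 0.000152), at 7.86, 7.76 and 7.66 in HS and 8.40, 8.62 and 8.73 in Cont.

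**Figure D2:**
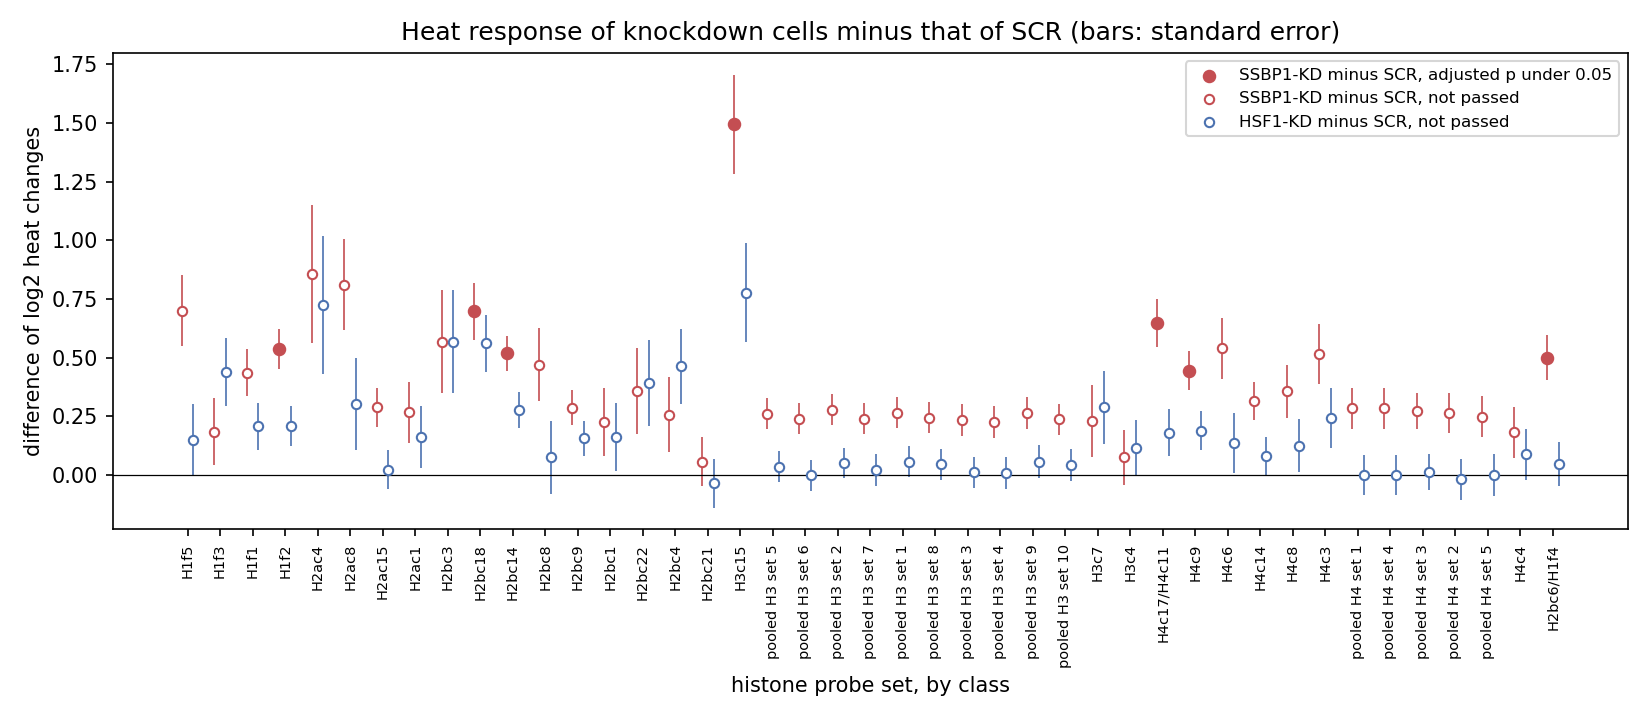
Log2 heat change of knockdown cells minus that of SCR cells (y axis) for each histone probe set (x axis, by class), for SSBP1-KD and HSF1-KD; bars are standard errors and filled points had an adjusted p under 0.05. Every SSBP1-KD point lies above 0 and 7 are filled, the highest being H3c15 at 1.495, while no HSF1-KD point is filled.

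The heat responses themselves were then compared. In SSBP1-KD minus SCR, 7 of 43 members passed, all upward, which is a smaller fall or none in SSBP1-KD, against 0.129% of all probe sets called upward and 0.312% downward. The count was 27 with array weights, 17 of the 35 members among the brighter probe sets, 13 with a trended prior, and 2 with the compared arrays alone or by the methods' analysis of variance. At an unadjusted p under 0.05 it was 34, against 9.64% of all probe sets in either direction. The difference was above 0 in 43 of 43 members, with a median of 0.28, beside 47.7% of all probe sets above 0. Over the members, the median of SSBP1-KD minus SCR was -0.41 in Cont and -0.13 in HS, where 30 of 43 were below 0. A smaller fall was thus not a higher level after heat in most members. In HSF1-KD minus SCR, no member passed by limma, against 0.0112% of all probe sets called upward and 0.315% downward, and 10 of 43 had an unadjusted p under 0.05, against 8.12% of all. The difference there was above 0 in 37 of 43 members, with a median of 0.11, beside 50% of all probe sets above 0, and the number called was 1 without SCR HS replicate 1. Both contrasts use the same SCR arrays and are not independent of each other.

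H3c15 had the largest difference, 1.495 (standard error 0.211, adjusted p = 0.00424). In SSBP1-KD it was at 8.80, 8.83 and 8.68 in HS and 8.57, 9.18 and 9.05 in Cont, which overlapped, unlike the SCR arrays given above. Without SSBP1-KD Cont replicate 1, the array with the lowest Cont value, the difference was 1.31 (adjusted p = 0.004). In HSF1-KD the gene was at 8.49, 8.65 and 8.37 in HS and 9.63, 9.07 and 9.45 in Cont, without overlap, and its difference from SCR was 0.78 (adjusted p = 0.24).

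Among H2B genes, H2bc18 and H2bc14 passed. H2bc18 was at 10.14, 10.40 and 10.11 in SSBP1-KD HS and 10.45, 10.43 and 10.47 in SSBP1-KD Cont, against 9.94, 9.61 and 9.68 in SCR HS and 10.74, 10.60 and 10.68 in SCR Cont (difference 0.70, adjusted p = 0.0202). All 6 SSBP1-KD arrays lay between the SCR HS and the SCR Cont arrays. H2bc14 was at 11.53, 11.57 and 11.52 in SSBP1-KD HS and 11.86, 11.90 and 12.05 in SSBP1-KD Cont. It was at 11.72, 11.59 and 11.61 in SCR HS and 12.58, 12.59 and 12.51 in SCR Cont (difference 0.52, adjusted p = 0.0059). Its SSBP1-KD arrays lay below all SCR arrays of the same temperature.

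The set listing H4c17/H4c11 was at 8.83, 8.76 and 8.71 in SSBP1-KD HS and 9.12, 9.19 and 9.26 in SSBP1-KD Cont (difference 0.65, adjusted p = 0.012). H4c9 was at 8.45, 8.40 and 8.40 in SSBP1-KD HS and 8.71, 8.88 and 8.82 in SSBP1-KD Cont (difference 0.44, adjusted p = 0.0311). For both, the SSBP1-KD HS arrays were above all SCR HS arrays and the SSBP1-KD Cont arrays below all SCR Cont arrays. H1f2 was at 11.06, 10.96 and 11.04 in SSBP1-KD HS and 11.04, 11.13 and 11.09 in SSBP1-KD Cont, which overlapped (difference 0.54, adjusted p = 0.0123). The set listing H2bc6/H1f4 was at 9.28, 9.28 and 9.15 in SSBP1-KD HS and 9.55, 9.64 and 9.68 in SSBP1-KD Cont (difference 0.50, adjusted p = 0.0322).

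Over 21 alternatives, the calls of H3c15 and of the H4c17/H4c11 set always held. H1f2 and H2bc14 missed the threshold when only the compared arrays were fitted and in the methods' analysis of variance. H2bc18 missed it under 7 alternatives, and H4c9 and the H2bc6/H1f4 set under 11 each, most of which left out 1 array. Of the 7 members, 4 passed without SCR HS replicate 2, SCR HS replicate 3 or SCR Cont replicate 1. H1f5, with a difference of 0.70, missed it (adjusted p = 0.0674).

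**Figure D3:**
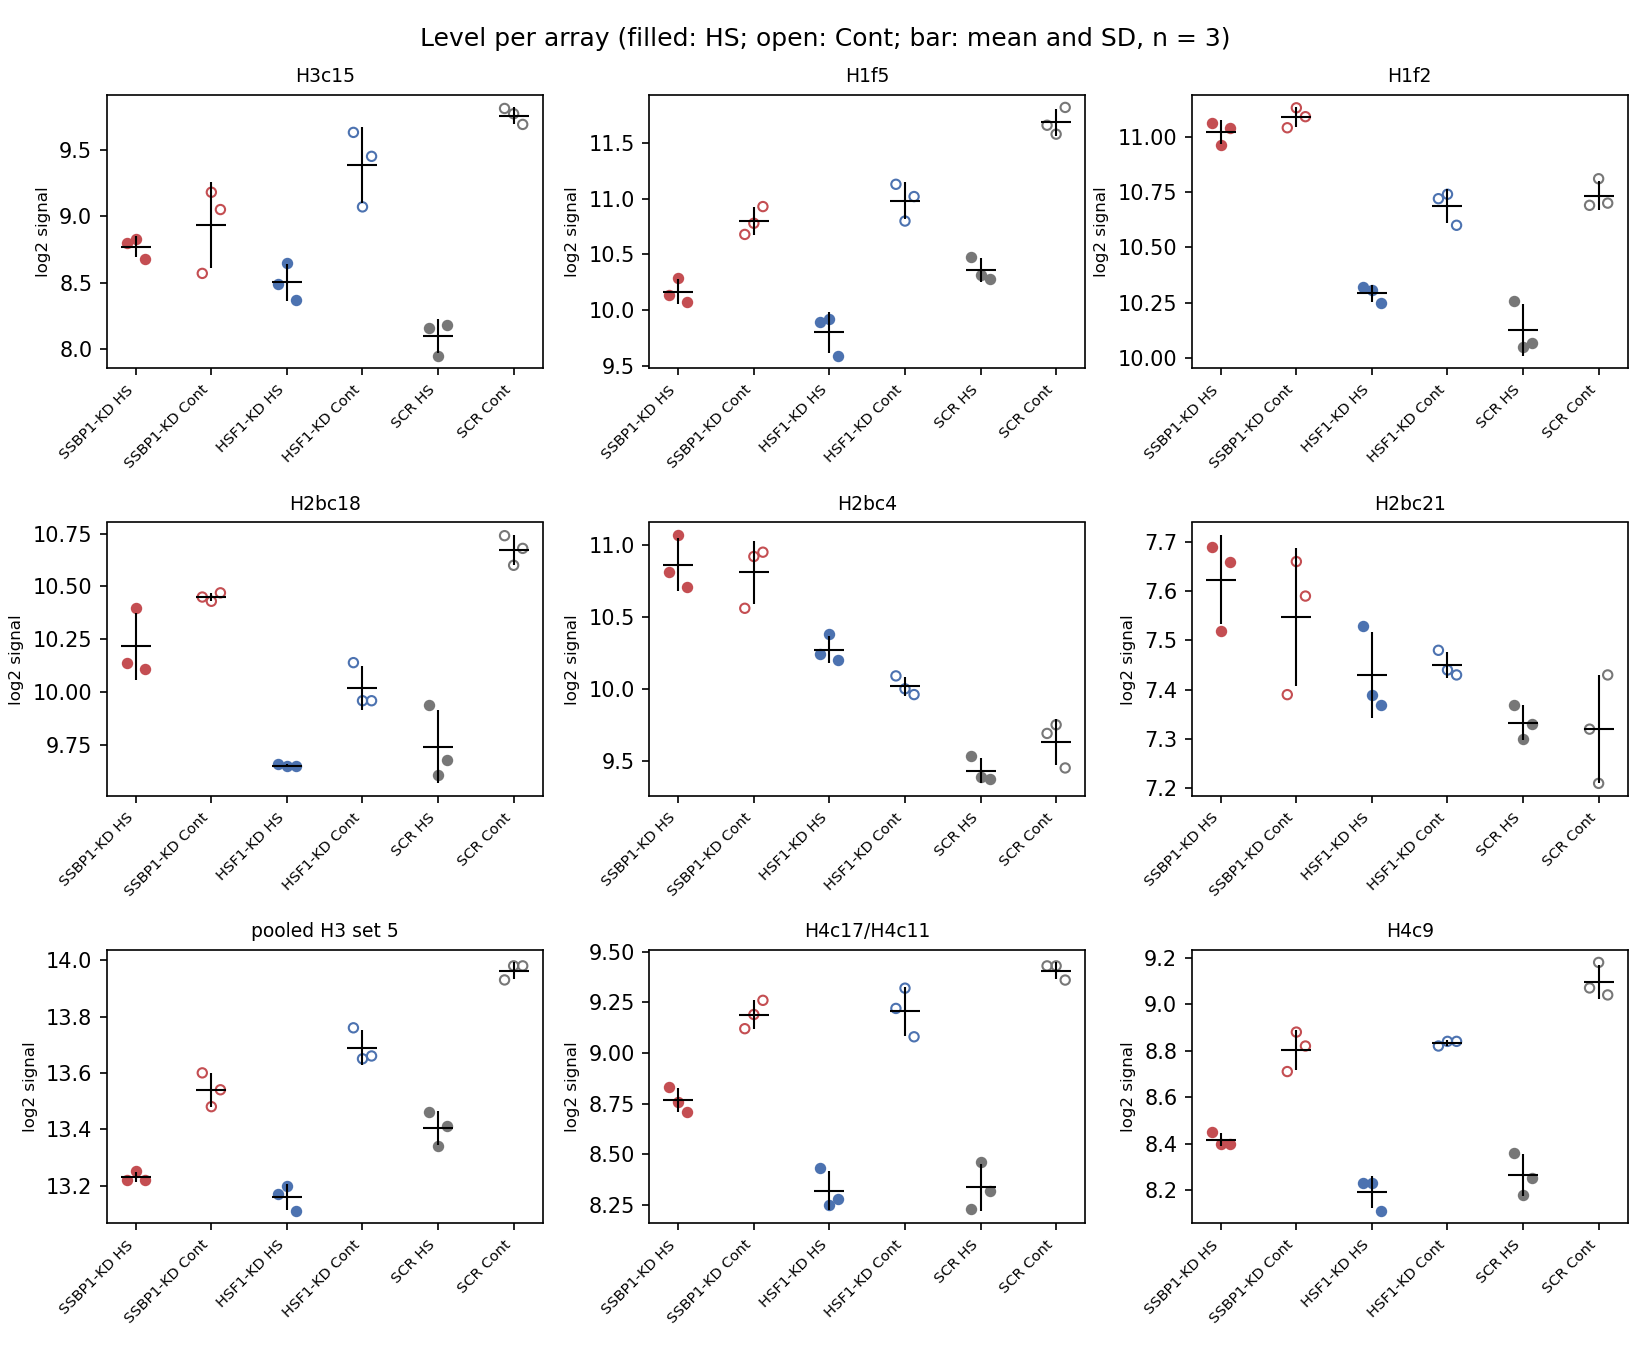
Log2 signal per array (y axis) of 9 histone probe sets (panels) in the 6 groups (x axis); filled points are HS and open points Cont arrays, and bars give the mean and SD (n = 3). H3c15 overlaps between HS and Cont in SSBP1-KD but not in HSF1-KD or SCR, and H2bc4 is highest in SSBP1-KD at both temperatures.

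Without heat shock, most histone transcripts were lower in the knockdown cells. In SSBP1-KD against SCR in Cont, 33 members fell and 4 rose, against 12.5% and 11.6% of all probe sets, with a median of -0.41. In HSF1-KD against SCR in Cont, 33 fell and 1 rose, against 8.48% and 8.05%, with a median of -0.36. The medians over all probe sets were 0.04 and 0.027. Knockdown and SCR did not overlap in 39 members in SSBP1-KD, against 36.8% of all probe sets, and in 37 in HSF1-KD, against 34.6%. The pooled H3 sets lay between -0.44 and -0.40 in SSBP1-KD and between -0.28 and -0.25 in HSF1-KD, and the pooled H4 sets between -0.41 and -0.39 and between -0.43 and -0.42. The 4 rises in SSBP1-KD were 2 without SSBP1-KD Cont replicate 2, SSBP1-KD Cont replicate 3, SCR Cont replicate 1 or SCR Cont replicate 2, and also with array medians set equal, the calls lost being those of H1f3 and H2bc21. The 33 falls in HSF1-KD ran from 32 to 34 when 1 array was left out. Of the calls described next, the methods' t-test lost those of H1f3, H2ac4, H2bc21 and H3c15 in SSBP1-KD and of H1f3, H1f5, H2ac4, H2bc3 and H2bc4 in HSF1-KD. Both comparisons use the same SCR Cont arrays.

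The H1 genes differed among themselves. H1f1 was at 10.12, 10.08 and 10.19 in SSBP1-KD Cont and 10.59, 10.42 and 10.47 in HSF1-KD Cont, against 11.22, 11.09 and 11.32 in SCR Cont. The groups did not overlap, and the differences from SCR were -1.08 (adjusted p = 1.68e-07) and -0.72 (adjusted p = 7.93e-06). H1f5 was likewise lower (-0.89 in SSBP1-KD and -0.71 in HSF1-KD). H1f3 was at 8.40, 8.62 and 8.73 in SSBP1-KD Cont and 7.98, 7.57 and 7.67 in HSF1-KD Cont, against 8.21, 8.18 and 8.38 in SCR Cont. It was thus higher in SSBP1-KD (0.33, adjusted p = 0.0303) and lower in HSF1-KD (-0.52, adjusted p = 0.00249). H1f2 was higher in SSBP1-KD (0.35, adjusted p = 0.000526), and in HSF1-KD it overlapped with SCR (-0.05, adjusted p = 0.676).

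Among the core histone genes, H2ac4 and H2bc3 had the largest falls in Cont in both knockdowns. H2ac4 was at 5.78, 6.18 and 6.42 in SSBP1-KD and 6.30, 5.46 and 6.21 in HSF1-KD, against 7.07, 7.14 and 7.17 in SCR (-1.0 and -1.14). H2bc3 was at 10.30, 10.53 and 10.62 in SSBP1-KD and 10.79, 10.22 and 10.73 in HSF1-KD, against 11.52, 11.44 and 11.75 in SCR (-1.08 and -0.99). All knockdown arrays lay below all SCR arrays for both genes. H3c15 fell in SSBP1-KD (-0.82, adjusted p = 0.000841), and its value in HSF1-KD was -0.37 (adjusted p = 0.113).

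H2bc14 was lower in both knockdowns with small errors. It was at 11.86, 11.90 and 12.05 in SSBP1-KD Cont and 12.11, 12 and 12.06 in HSF1-KD Cont, against 12.58, 12.59 and 12.51 in SCR Cont (-0.62, adjusted p = 1.43e-06, and -0.50, adjusted p = 1.72e-05). Neither knockdown overlapped with SCR. H4c6 was at 10.11, 10.13 and 10.33 in SSBP1-KD Cont and 10.30, 10.02 and 10.28 in HSF1-KD Cont, against 10.96, 10.91 and 11.06 in SCR Cont (-0.78 and -0.78). H4c14 was at 11.57, 11.52 and 11.55 in SSBP1-KD Cont and 11.57, 11.46 and 11.49 in HSF1-KD Cont, against 11.99, 11.95 and 12.03 in SCR Cont (-0.44 and -0.48). Both H4 genes passed in both knockdowns, with no overlap. H2bc18 was at 10.14, 9.96 and 9.96 in HSF1-KD Cont, against 10.74, 10.60 and 10.68 in SCR Cont (-0.65, adjusted p = 0.000105), again without overlap, while its value in SSBP1-KD was -0.23 (adjusted p = 0.0712).

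H2bc4, an H2B gene, went the other way. Its signal was 10.56, 10.92 and 10.95 in SSBP1-KD Cont and 10.09, 10.0 and 9.96 in HSF1-KD Cont, against 9.69, 9.75 and 9.45 in SCR Cont. Both knockdowns lay above SCR without overlap, by 1.18 in SSBP1-KD (adjusted p = 3.69e-06) and by 0.38 in HSF1-KD (adjusted p = 0.0304). In HS it was at 10.81, 11.07 and 10.71 in SSBP1-KD and 10.24, 10.38 and 10.20 in HSF1-KD, against 9.53, 9.39 and 9.37 in SCR. These were the largest rises of any member in HS, 1.44 (adjusted p = 8.06e-07) and 0.85 (adjusted p = 8.78e-05). The call in HSF1-KD Cont was lost when any array but SCR Cont replicate 2 was left out of the 6 compared. H2bc21 was higher in SSBP1-KD as well, by 0.23 in Cont (adjusted p = 0.0333, with overlapping arrays) and by 0.29 in HS (adjusted p = 0.0105).

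**Figure D4:**
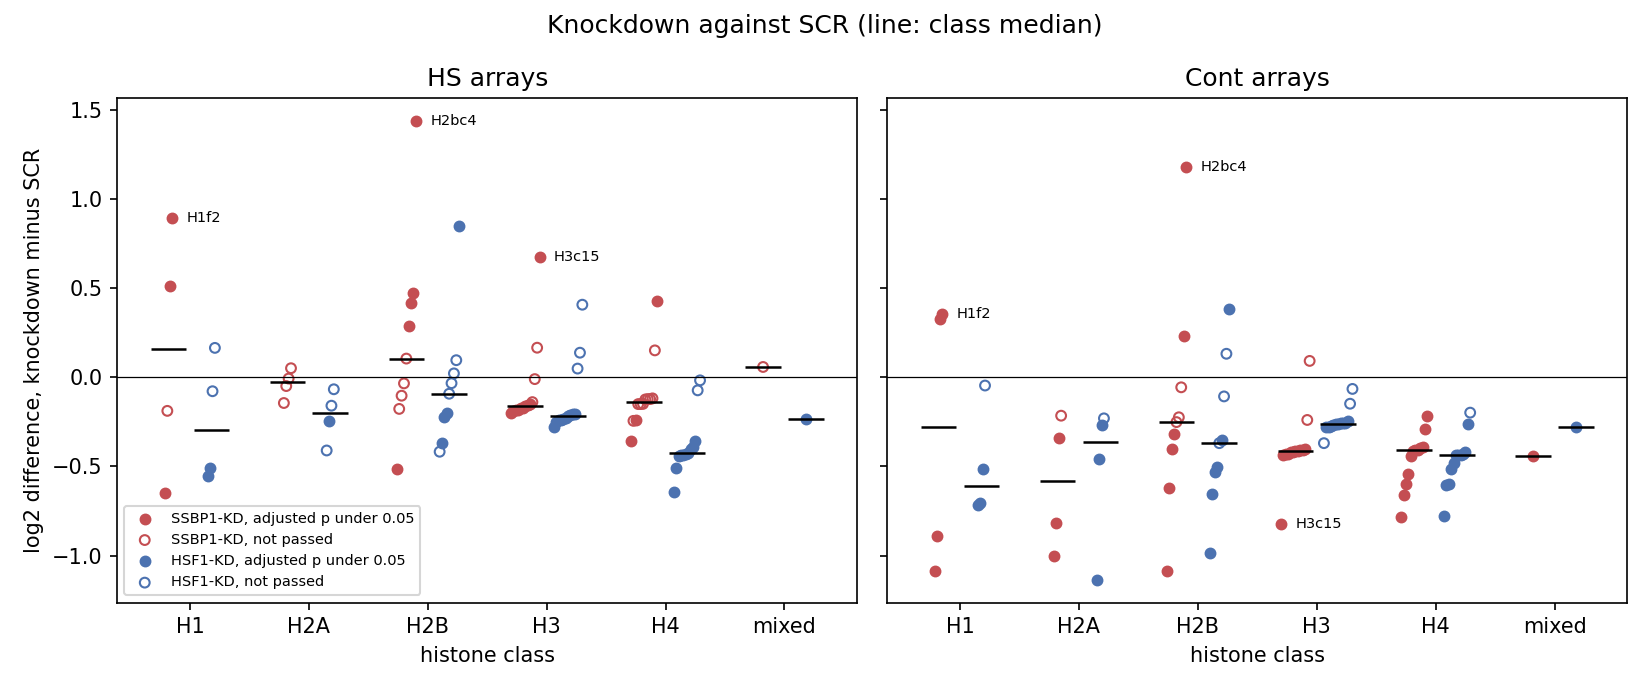
Log2 difference of SSBP1-KD and HSF1-KD minus SCR (y axis) for each histone probe set, by class (x axis), in HS arrays (left panel) and Cont arrays (right panel); filled points had an adjusted p under 0.05 and lines are class medians. Most Cont points lie below 0, and H2bc4 in SSBP1-KD is the highest point in both panels, at 1.44 and 1.18.

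After heat shock, members were called on both sides of SCR in SSBP1-KD. In SSBP1-KD against SCR in HS, 13 members fell and 8 rose, against 11.5% and 10.8% of all probe sets, with a median of -0.13. In HSF1-KD against SCR in HS, 27 fell and 1 rose, against 8.56% and 9.46%, with a median of -0.23. The 27 falls ran from 23 to 27 when 1 array was left out, and the single rise became 2 without SCR HS replicate 1. Knockdown and SCR did not overlap in 32 members in SSBP1-KD, against 38.8% of all probe sets, and in 32 in HSF1-KD, against 35.3%. Of the 13 that fell in SSBP1-KD, 9 were pooled H3 sets, and the others were H1f1, H2bc3, H4c4 and H4c8, so that 5 fell when each list of symbols was counted once. The call of H2bc3 was lost under 5 of 15 alternatives and that of H4c8 under 11 of 14. The count of 13 was 7 without SSBP1-KD HS replicate 1, 6 without SCR HS replicate 3 and 5 without SCR HS replicate 1, which held the highest SCR HS value in 40 of the 43 members. In HSF1-KD, H4 had the lowest class median, -0.43, with all 12 members below 0, of which 10 fell. H4c6 was at 9.62, 9.58 and 9.42 in HSF1-KD HS, against 10.28, 10.17 and 10.10 in SCR HS (-0.64, adjusted p = 0.000148). H4c14 was at 10.95, 11.01 and 10.82 in HSF1-KD HS, against 11.43, 11.29 and 11.27 in SCR HS (-0.40, adjusted p = 0.000148, a call that the methods' t-test lost). HSF1-KD lay below SCR without overlap for both. H1f1 was at 9.66, 9.57 and 9.63 in SSBP1-KD HS and 9.86, 9.78 and 9.64 in HSF1-KD HS, against 10.35, 10.23 and 10.23 in SCR HS, and it fell in both (-0.65, adjusted p = 1.16e-05, and -0.51, adjusted p = 0.000114). H4c4 was at 11.73, 11.77 and 11.67 in SSBP1-KD HS, against 12.16, 12.04 and 12.05 in SCR HS (-0.36, adjusted p = 0.00327).

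The 8 members that were higher in SSBP1-KD HS were H2bc4, H1f2, H3c15, H1f3, H2bc18, H4c17/H4c11, H2bc8 and H2bc21. H1f2 was at 11.06, 10.96 and 11.04 in SSBP1-KD HS, against 10.26, 10.05 and 10.07 in SCR HS (0.89, adjusted p = 2.6e-07). H3c15 was at 8.80, 8.83 and 8.68 in SSBP1-KD HS, against 8.16, 7.95 and 8.18 in SCR HS (0.67, adjusted p = 0.00381). H2bc8 was at 8.89, 8.96 and 8.67 in SSBP1-KD HS, against 8.59, 8.34 and 8.35 in SCR HS (0.41, adjusted p = 0.0136). This call was lost in the methods' t-test and without SSBP1-KD HS replicate 1, SSBP1-KD HS replicate 2, SCR HS replicate 2 or SCR HS replicate 3, and that of H2bc18 in the methods' t-test. In none of the 3 did SSBP1-KD and SCR overlap, and H3c15 was thus lower than SCR in Cont and higher than SCR in HS.

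Genes with related roles were read beside the members. On heat shock in SCR, 7.61% of all probe sets fell and 7.78% rose, and the counts below stand beside these shares. Of 9 measured genes of histone variants, which are not among the members, 1 fell and none rose on heat shock in SCR cells, with a median of 0.08. It was H2ax, the H2A variant phosphorylated at DNA breaks, at 10.24 ± 0.0525 in SCR HS and 10.56 ± 0.0287 in SCR Cont (SD, n = 3; -0.32, adjusted p = 0.0049). Of 18 genes of histone transcription and processing, Srrt, which acts with the cap-binding complex, fell (-0.32), Yy1 and Casp8ap2 rose (0.23 and 0.17), and 15 did not pass. Among these 15 were Slbp (0.12, adjusted p = 0.3) and Npat (-0.03, adjusted p = 0.796). In HSF1-KD cells Slbp rose on heat shock (0.29, adjusted p = 0.00723), but none of the 18 genes passed when that heat response was compared with that of SCR. Of 12 genes of histone mRNA translation and decay, 4 rose, among them the decapping enzyme Dcp2 (0.29), the exonuclease Xrn1 (0.29) and the uridylyltransferase Tut4 (0.27), and the exosome subunit Exosc10 fell (-0.16).

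Of 18 histone chaperone genes, Set (0.60) and Ubn1 (0.56) rose on heat shock in SCR cells and none fell. Of all probe sets, 7.78% rose and 7.61% fell, also for the counts in SCR that follow. Set was the only gene of these lists that passed in a comparison of heat responses, with -0.73 in HSF1-KD minus SCR (adjusted p = 0.0213). There, 0.315% of all probe sets were called downward. Among 29 S-phase and DNA replication genes, 3 fell and 3 rose in SCR cells, with a median of -0.01. The thymidine kinase gene Tk1 fell (-0.40), and the helicase subunit genes Mcm3, Mcm6 and Mcm4 rose (0.28, 0.22 and 0.21). Among 11 mitosis genes, Mki67, Cdc20 and Plk1 fell (-0.35, -0.31 and -0.24), and Cenpe rose (0.18).

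In Cont, 9 of the 29 S-phase genes fell and 7 rose in SSBP1-KD against SCR, with a median of -0.06. Of all probe sets, 12.5% fell and 11.6% rose there. In HSF1-KD, 8 of the 29 genes fell and 2 rose, with a median of -0.10. Of all probe sets, 8.48% fell and 8.05% rose there. The counts that follow stand beside the same shares. Of the 9 histone variants, 4 fell in SSBP1-KD and 6 in HSF1-KD, and none rose. Of 11 mitosis genes, 3 fell and 1 rose in SSBP1-KD (median -0.04), and 2 fell and none rose in HSF1-KD (median -0.003). In SSBP1-KD, the differences of these 11 genes ran from -0.41 to 0.25, and 7 did not pass. Mki67, a marker of cycling cells, had the lowest of them. It was at 11.77 ± 0.034 in SSBP1-KD Cont and 12.17 ± 0.0136 in HSF1-KD Cont, against 12.18 ± 0.0776 in SCR Cont (SD, n = 3 each). It fell in SSBP1-KD (-0.41, adjusted p = 3.48e-05), and its value in HSF1-KD was -0.01 (adjusted p = 0.941). Of the 10 fibroblast markers, 6 fell and 1 rose in each knockdown in Cont, with medians of -0.34 in SSBP1-KD and -0.24 in HSF1-KD. The part that these genes, or the share of cells in S phase, had in the histone differences was not tested.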

How the data were processed

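Total RNA (200 ng) of each sample was labelled with a whole-transcript kit and hybridised to 1 array. The deposited values are log2 signals, which the authors made with RMA; the submitters' processing notes name Partek 6.5 and RMA. RMA ties each value to all arrays, and a set that reads several genes gives 1 value for all. Values were used as deposited, with no filter on low signal. No detection p-values were used, and no depth applies; the number of arrays limits the precision. limma 3.58.1 in R 4.3.3 was fitted with 1 mean per group over all 18 arrays (residual df 12, prior df 2.361), with Benjamini-Hochberg adjustment over 35557 probe sets, and a call is an adjusted p under 0.05. The fit was tested on simulated data. Labels do not say whether the 3 arrays of a group came from separate cultures, so the spread may be partly technical. Members and gene lists were chosen with earlier results of these data known. Values per array are given for the member of the highest mean, the 2 largest falls and the largest rise of each class on heat shock in SCR, and for up to 8 called members of each other comparison with the smallest p, where pooled sets with the same targets are given by their range. Of the related lists, the up to 4 called genes with the largest changes are named, and a few further genes were named after their values were seen. Same-numbered arrays deviated together (r over 0.1) in 6 of 45 pairs (-0.276 to 0.171), so replicate numbers were not used for pairing. Alternatives were other scalings, filters, priors, array weights, the replicate block, the compared arrays alone, the methods' t-test or analysis of variance, the methods' 1.5-fold rule, other ways of counting shared probe sets and leaving out each array. Wherever the methods' t-test or analysis of variance is given, its p was Benjamini-Hochberg adjusted over all probe sets. The paper's main text names no such adjustment, so a call lost there may still pass the paper's own test. Tables and figures were made with Python 3.11.15, pandas 2.3.3 and matplotlib 3.10.9.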

Additional observations from a re-analysis of the deposited data

Results flagged for a closer look

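In 8 probe sets the heat response of SSBP1-KD cells differed from that of SCR cells by limma's test of the difference itself (adjusted p under 0.05). The differences, on the log2 scale, were 1.495 for H3c15, 0.70 for H2bc18, 0.65 for H4c17/H4c11, 0.54 for H1f2, 0.52 for H2bc14, 0.50 for H2bc6/H1f4 and 0.44 for H4c9. The eighth, at 0.33 (adjusted p = 0.0386), was a pooled H2A set outside the 43 members. When the array least like its group, SSBP1-KD Cont replicate 1, was left out, H3c15 was at 1.31 and H2bc6/H1f4 missed the threshold (adjusted p = 0.0551).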

How the results depend on the processing

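Counts of members that fell on heat shock in SCR (39) ran from 38 to 39 when 1 array was left out. They were 19 at the methods' 1.5-fold rule, 22 of 26 single-symbol members and 19 of 21 with 1 probe set per symbol. In HSF1-KD (35, 34 to 38) these settings gave 10, 18 and 15, counting each symbol list once gave 22, and array weights gave 1 rise. In SSBP1-KD (27, 22 to 28) the compared arrays alone gave 7, the methods' test 2, the 1.5-fold rule 2, single symbols 10, 1 per symbol 11 and each list once 14. For HSF1-KD in Cont, falls (33, 32 to 34) were 8 at 1.5-fold, 17 for single symbols, 15 per symbol and 20 per list, and rises (1, 0 to 1) were 0 by the methods' test and at 1.5-fold. For SSBP1-KD in Cont, falls (33, 32 to 34) were 10, 16, 13 and 20, and rises (4, 2 to 4) were 2 with array medians set equal, with brighter probe sets, with the compared arrays and by the methods' test, and 1 at 1.5-fold. For HSF1-KD in HS, falls (27, 23 to 27) were 10 by the methods' test, 1 at 1.5-fold, 11 for single symbols, 10 per symbol and 14 per list; rises (1, 1 to 2) were 3 with brighter probe sets or array weights and 2 with symbols only or the compared arrays. For SSBP1-KD in HS, falls (13, 5 to 13) were 5 with the compared arrays, 3 by the methods' test, 1 at 1.5-fold, 4, 3 and 5, and rises (8, 7 to 9) were 3 at 1.5-fold. For the heat response, HSF1-KD (0, 0 to 1) gave 1 with brighter probe sets, symbols only or a trended prior, and 2 with array weights or 1.5-fold. SSBP1-KD (7, 4 to 7) gave 17 with brighter probe sets, 27 with array weights, 13 with a trended prior, 2 with the compared arrays or the methods' test and 4 per symbol. The 5 falls in HS came without SCR HS replicate 1, and the 4 in the heat response without SCR HS replicate 2, SCR HS replicate 3 or SCR Cont replicate 1. With the replicate block, the heat response count was 6 in SSBP1-KD and 39 members fell in SCR; 6 of 18 arrays correlated best with their own number. Class medians moved by more than the spread between replicates in 17 cases, 11 of them H3 with the pooled sets left out or counted once, and changed sign in 6: H3 at 0.022 (single symbols, heat in HSF1-KD), 0.137 and 0.092 (single symbols and each list once, HSF1-KD in HS) and 0.165 and 0.077 (the same, SSBP1-KD in HS), and H2B at 0.005 (HSF1-KD in HS without SCR HS replicate 1; -0.158 to 0.005 over the arrays left out). Counting fewer sets lowers counts by construction; the cause of the other changes was not tested. Over all members and comparisons, alternatives for single probe sets left the outcome unchanged in 5887 cases, lost a call in 253 and gained one in 109. The 5887 include cases that were not called in either fit, so they are not a count of calls that held.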
